A study of Mus musculus with 6 samples.

Results

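Macrophages hold fat in lipid droplets, so 48 mouse genes of droplet storage, lipolysis and beta-oxidation were described in elicited peritoneal macrophages with and without FOXO3. The 48 genes were listed by name for what their products are known to do, by a rule that uses no value but was written with earlier results of these data known, and were matched by symbol among the 54648 symbols of the deposited table. All 48 were found, and they were set in 6 roles, namely the PPAR regulators (5 genes), uptake and activation (10), synthesis of stored esters (7), the droplet coat (7), lipolysis (8) and beta-oxidation (11). Of these, 44 passed the filter on low counts; the other 4 (Ppara, Plin4, Plin5 and Cidec) were near 0 in every library.

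The study compared 3 samples of wildtype (WT) with 3 of FOXO3 knockout (FOXO3 KO) mice. The mice were of strain C57BL/6, 6-8 weeks old, males and females on standard chow. Homozygous WT and FOXO3 KO mice were told apart by genotyping littermates. Every mouse of both groups had thioglycollate, an irritant, injected into the abdomen, and the cells of the cavity were collected 4 days later, with no sort described, so the RNA is that of macrophages and of any cells that came with them. Total RNA was read in pairs of 76 bp; the labels list the 6 libraries as separate samples, and p-values measure the spread between these samples.

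A macrophage takes up fatty acids set free from lipoproteins by lipoprotein lipase, activates them to acyl-CoA, and either burns them in mitochondria or esterifies them into triglyceride and cholesteryl ester. The esters are kept in droplets coated with perilipins, and are cut again by cytosolic lipases or, after delivery to the lysosome, by acid lipase. The nuclear receptors PPARγ, PPARα and PPARδ bind fatty acids and switch on many of these genes, and FOXO3 is a forkhead transcription factor that insulin signalling keeps out of the nucleus.

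The 6 libraries held 28083393 to 36424117 counts. WT 1, 2 and 3 gave 117, 107 and 73.1 CPM of Foxo3 (CPM being counts scaled to a common size by the TMM-scaled library size). It was at 4.71 and 4.29 CPM in FOXO3 KO 1 and 3 but at 104 CPM in the library labelled FOXO3 KO 2. That library therefore went against its label, and comparisons are given with all 6 libraries and with the 5 left after it is set aside. The log2 fold change of Foxo3 was -1.40 ± 1.22 (SE) with 6 libraries and -4.46 ± 0.29 with 5, with adjusted p = 0.859 and 0.105 by edgeR's quasi-likelihood test. WT 3 stood apart from the other 5 libraries: across genes, log2 CPM correlated at r = 0.9755 to 0.9857 in pairs with WT 3 and at r = 0.9939 to 0.9973 in pairs without it. The 12 macrophage markers (Csf1r, Cd68, Lyz2 and others) summed to 15110 to 19857 CPM in every library, and the 8 adipocyte markers to at most 0.978 CPM, with Cfd and Lep at 0 throughout. Xist, an RNA of female cells, was at 871 CPM in WT 3 and 1130 CPM in FOXO3 KO 3 and at most 0.177 CPM elsewhere, and the Y-linked Ddx3y ranged from 98.7 to 123 CPM in 4 libraries, with 23.7 in WT 3 and 2.37 in FOXO3 KO 3. WT 3 thus held transcripts of both sexes, and whether it is RNA of 1 mouse was not tested. Every WT mean and SD of n = 3 includes it. Marker sums that were higher in all or most FOXO3 KO libraries were those of mesothelial cells (5.40 to 7.55 CPM in WT, 11.7 to 42.1 in FOXO3 KO), fibroblasts (40.9 to 75.7 against 93.5 to 482), red blood cells (9.70 to 27.0 against 9.23 to 182) and neutrophils (125 to 194 against 191 to 448). Within the neutrophil sum, S100a9 was at 0.252 to 5.61 CPM in WT and at 164, 6.93 and 117 CPM in FOXO3 KO 1 to 3. S100a8 was at 2.40 to 11.3 CPM in WT and at 83.2, 12.9 and 59.8 CPM in FOXO3 KO 1 to 3. Csf3r was also higher in all FOXO3 KO libraries, whereas Ltf, Mmp8 and Retnlg overlapped between groups. Ly6g, Mpo, Elane, Camp and Ngp had at most 7 counts in a library. The sum of B cell markers (718 to 5496 against 300 to 1298) was lower in FOXO3 KO 1 and 2 than in every WT library. The part of these cells in the results below was not tested.

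None of the 44 genes tested passed the comparison of FOXO3 KO with WT by edgeR's quasi-likelihood test after Benjamini-Hochberg adjustment over all genes. This held with 6 libraries, where 0% of 15608 genes tested passed an adjusted p of 0.05, and with 5, where 0% of 16217 did. At an unadjusted p under 0.05 with 6 libraries, 1 of the 44 was higher in FOXO3 KO (Ppard) beside 4.04% of all genes, and 1 was lower (Gpam) beside 1.65%. With 5 libraries 1 was higher (Dgat2) beside 3.05% of all genes, and 0 were lower beside 1.26%. The 3 FOXO3 KO libraries all lay above the 3 WT libraries for 2 of the 44 (Ppard and Dgat2) beside 7.00% of all genes, and all below for 2 (Gpam and Acadvl) beside 5.36%. With 5 libraries the FOXO3 KO libraries lay above all WT for 6 of the 44 (the same pair with Acsl3, Acsl5, Cpt1a and Slc25a20) beside 11.0% of all genes, and below for 2 (again Gpam and Acadvl) beside 9.23%. DESeq2 also called 0 of the 44 with 6 libraries, where it called 0.826% of all genes, and with 5, where it called 0.703%. The likelihood ratio test of edgeR likewise called 0, beside 0.698% of all genes with 6 libraries and 0.475% with 5.

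**Figure D1:**
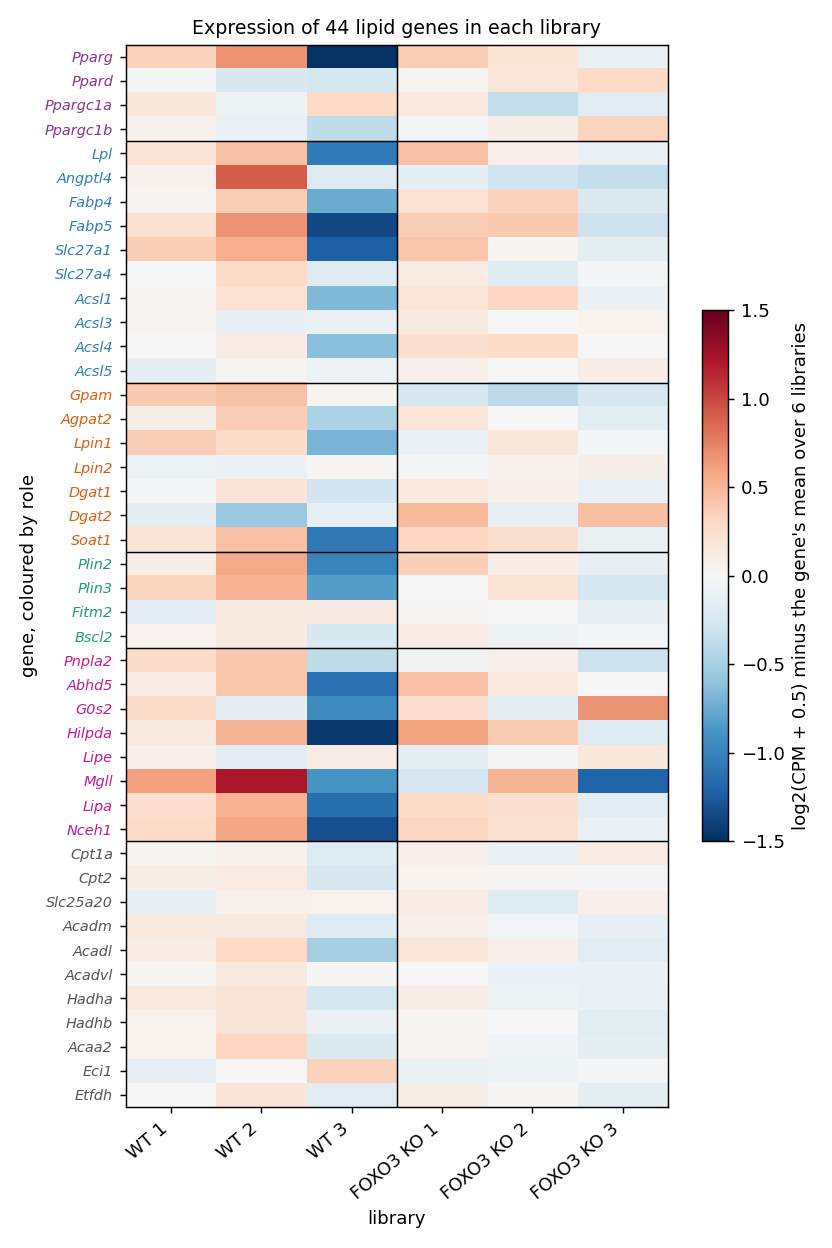
Expression of the 44 genes tested (rows, ordered and coloured by role) in the 6 libraries (columns), as log2(CPM + 0.5) minus the mean of the gene over the libraries; colours end at 1.5 either way. The WT 3 column is blue for most genes of uptake and lipolysis and for Plin2 and Plin3 of the coat. It is near white for most genes of beta-oxidation.

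The median log2 fold change (FOXO3 KO over WT) of the 44 genes was 0.04 with 6 libraries, with 26 higher and 18 lower, beside -0.01 for all genes tested. The medians of the roles were 0.18 for the regulators, 0.12 for uptake, 0.07 for synthesis, -0.03 for the coat, 0.10 for lipolysis and -0.06 for beta-oxidation. With 5 libraries the median of the 44 was 0.04, with 27 higher and 17 lower, and those of the roles lay between -0.04 (beta-oxidation) and 0.18 (regulators). These are descriptions without a test. The roles differed more in precision. The median SE of a log2 fold change was 0.13 for beta-oxidation and 0.44 for lipolysis, against 0.24 over all genes tested. Without WT 3 the medians of these roles were 0.093 and 0.17, so they lay closer together and the difference depended largely on that library.

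**Figure D2:**
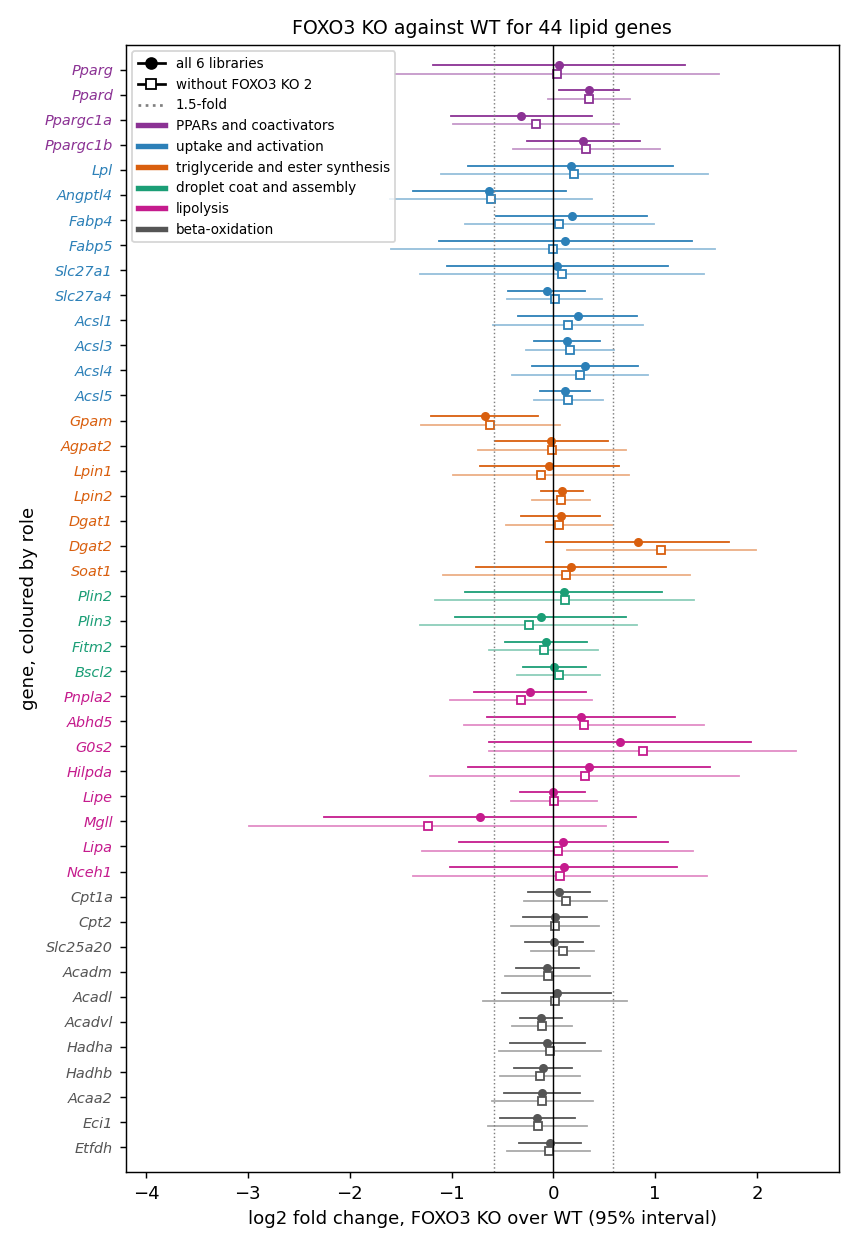
Log2 fold change of each of the 44 genes, FOXO3 KO over WT, with its 95% interval by edgeR's quasi-likelihood fit, for all 6 libraries (filled circles) and without the library labelled FOXO3 KO 2 (open squares); dotted lines mark 1.5-fold. All 11 beta-oxidation intervals stay inside the dotted lines with 6 libraries, whereas those of Mgll, G0s2, Pparg and Fabp5 reach far past them.

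Because FOXO3 acts on DNA, the promoters of the 48 genes were read for the core letters of the forkhead element. RefSeq windows on GRCm38.p6, each the 250 bases before a start, were at hand for 40 of the 48 genes (55 windows). GTAAACA, on either strand, stood in 3 of the 55 (5.45%), beside 3.17% of the 32851 windows of all genes. A PPAR element (2 copies of AGGTCA 1 base apart on either strand, with up to 2 mismatches) stood in 1 of the 55 (1.82%), beside 3.24% of all windows. The motif lies 241 bases before a start of Mgll (monoglyceride lipase), 119 before one of Lipe (hormone-sensitive lipase, on the reverse strand) and 138 before one of Lpin2 (a phosphatidate phosphatase). The PPAR element lies 225 bases before a start of Plin2, also on the reverse strand. Mgll has another window (chr6:88724454-88724703) without either motif, and Gpam has another besides that shown (chr19:55099478-55099727), also without. The windows shown for Lipe and Lpin2 belong to starts inside the genes, which span chr7:25379527-25398710 and chr17:71182560-71249817. A match of letters is a description and no binding was measured. The 4 windows are shown 5′ to 3′ on the gene's strand with the match in capitals, followed by the windows of Ppard and Gpam, the genes with the lowest unadjusted p with 6 libraries, which hold neither motif.
Mgll (chr6:88724162-88724411, + strand): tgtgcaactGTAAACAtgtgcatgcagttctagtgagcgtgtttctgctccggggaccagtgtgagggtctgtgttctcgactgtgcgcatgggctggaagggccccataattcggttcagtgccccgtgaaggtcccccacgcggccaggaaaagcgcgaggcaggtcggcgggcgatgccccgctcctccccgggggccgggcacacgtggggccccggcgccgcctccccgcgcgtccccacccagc
Lipe (chr7:25390113-25390362, - strand): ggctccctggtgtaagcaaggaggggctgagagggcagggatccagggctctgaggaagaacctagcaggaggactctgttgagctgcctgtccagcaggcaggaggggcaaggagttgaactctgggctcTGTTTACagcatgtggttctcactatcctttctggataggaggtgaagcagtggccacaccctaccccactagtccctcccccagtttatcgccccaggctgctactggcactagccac
Lpin2 (chr17:71204404-71204653, + strand): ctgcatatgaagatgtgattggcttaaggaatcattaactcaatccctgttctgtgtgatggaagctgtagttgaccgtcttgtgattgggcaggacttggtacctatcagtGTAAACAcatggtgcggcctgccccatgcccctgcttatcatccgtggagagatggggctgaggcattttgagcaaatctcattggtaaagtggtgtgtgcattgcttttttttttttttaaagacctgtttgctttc
Plin2 (chr4:86670060-86670309, - strand): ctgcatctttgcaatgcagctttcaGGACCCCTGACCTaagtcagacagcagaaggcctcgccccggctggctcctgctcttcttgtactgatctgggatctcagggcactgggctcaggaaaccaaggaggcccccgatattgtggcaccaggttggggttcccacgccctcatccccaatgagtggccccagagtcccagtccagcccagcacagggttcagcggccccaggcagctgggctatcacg
Ppard (chr17:28232504-28232753, + strand): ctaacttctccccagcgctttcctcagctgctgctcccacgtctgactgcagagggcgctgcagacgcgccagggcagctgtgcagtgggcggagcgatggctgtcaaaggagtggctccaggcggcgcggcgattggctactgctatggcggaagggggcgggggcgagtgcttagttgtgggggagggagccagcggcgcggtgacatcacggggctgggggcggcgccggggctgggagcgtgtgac
Gpam (chr19:55127239-55127488, - strand): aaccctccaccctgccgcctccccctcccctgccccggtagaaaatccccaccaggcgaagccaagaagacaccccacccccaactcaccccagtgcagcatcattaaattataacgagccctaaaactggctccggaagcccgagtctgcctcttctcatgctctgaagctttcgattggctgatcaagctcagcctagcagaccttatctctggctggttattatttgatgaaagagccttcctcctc

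Of the 3 genes with the forkhead letters, Lipe and Lpin2 had small log2 fold changes. WT 1 to 3 gave 26.5, 22.2 and 27.0 CPM of Lipe, against 22.7, 24.7 and 27.9 CPM in FOXO3 KO 1 to 3. Its log2 fold change was -0.01 (95% interval -0.33 to 0.31), and the groups overlapped. With 5 libraries it was 0.01 ± 0.17 (SE). Lpin2 had a log2 fold change of 0.09 (-0.12 to 0.29) with 6 libraries and 0.08 ± 0.11 with 5. Mgll is described with the lipases below.

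Among the regulators, Ppard (PPARδ, a receptor for fatty acids from lipoproteins; chr17:28232700-28301474, + strand, on GRCm38 as are the positions of the genes that follow) was the one with the lowest p. The WT libraries gave 24.5, 21.0 and 20.5 CPM, against 25.5, 28.2 and 30.6 CPM for FOXO3 KO 1, 2 and 3. The lowest FOXO3 KO library, FOXO3 KO 1, lay just above the highest WT library. The library labelled FOXO3 KO 2 lay above FOXO3 KO 1 and every WT library, although its Foxo3 was at the WT level. The means were 22.0 ± 2.15 (SD, n = 3) and 28.1 ± 2.54, a log2 fold change of 0.35 ± 0.12 (SE), with adjusted p = 0.827 by edgeR's quasi-likelihood test (0.0284 unadjusted). With 5 libraries the change was 0.35 ± 0.16, with an unadjusted p of 0.0769 in the same fit across all genes.

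Pparg, the PPAR of fat storage and of alternatively activated macrophages, had the highest level of the regulators per kilobase of exon (29.8 CPM). WT 1 to 3 gave 82.3, 104 and 22.9 CPM, against 83.4, 74.2 and 59.5 CPM for FOXO3 KO 1 to 3. WT 3 alone was low, and the other 5 libraries overlapped. Its log2 fold change was 0.06 (95% interval -1.18 to 1.30), which includes a change of 2-fold in either direction, and with 5 libraries 0.04 ± 0.63 (SE). The coactivators Ppargc1a and Ppargc1b, which drive mitochondrial genes, were at 1.28 to 2.29 and 3.22 to 5.61 CPM, with log2 fold changes of -0.31 ± 0.29 (SE) and 0.30 ± 0.23. Ppara, the PPAR of liver beta-oxidation, had 2 to 4 counts in each library.

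Uptake and activation held the most abundant of the 48 genes. Per kilobase of exon, averaged over the 6 libraries, Fabp5 (a carrier of fatty acids in the cytosol) stood at 1409 CPM, Lpl at 542 and Fabp4 at 330. Fabp5 has near-identical processed copies in the genome, and its level depends on how the authors' counting shared their reads. Lpl, the lipase that frees fatty acids from triglyceride-rich lipoproteins, was at 2425, 2864 and 1012 CPM in the WT libraries and at 2866, 2238 and 1981 CPM in those of FOXO3 KO. Fabp5 was at 1486, 2020 and 496 CPM in the WT libraries and at 1642, 1671 and 1026 CPM in those of FOXO3 KO. WT 3 was the lowest of the 6 libraries for both genes. WT 2 was the highest for Fabp5 and level with FOXO3 KO 1 for Lpl, so the range of WT held nearly all of FOXO3 KO. The log2 fold changes with 6 libraries were 0.17 ± 0.41 (SE) for Lpl and 0.12 ± 0.51 for Fabp5. With 5 libraries Lpl was at 0.21 ± 0.52, and the change of Fabp5 was within 0.01 of 0 with an SE of 0.63.

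Angptl4, a secreted inhibitor of lipoprotein lipase and a target of the PPARs, had the log2 fold change of this role furthest from 0. It was at 11.4, 20.8 and 9.45 CPM in the WT libraries and at 9.78, 8.76 and 8.39 CPM in those of FOXO3 KO. WT 2 alone was far above the rest, and WT 3 lay below FOXO3 KO 1. The means were 13.9 ± 6.08 and 8.98 ± 0.718 CPM (SD, n = 3), a log2 fold change of -0.63 ± 0.31 (SE), with adjusted p = 0.839 by edgeR's quasi-likelihood test. With 5 libraries it was -0.61 ± 0.39. The other 7 genes of uptake, which are the carrier Fabp4, the transporters Slc27a1 and Slc27a4 and the acyl-CoA synthetases Acsl1, Acsl3, Acsl4 and Acsl5, had log2 fold changes between -0.07 (Slc27a4) and 0.31 (Acsl4), and all 7 overlapped between groups with 6 libraries. With 5 libraries Acsl3 and Acsl5 did not overlap.

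In ester synthesis, Gpam and Dgat2 lay at opposite ends, both at low levels. Gpam, the mitochondrial acyltransferase that opens glycerolipid synthesis (chr19:55067268-55127238, - strand), was at 5.10, 5.26 and 3.89 CPM in the WT libraries and at 3.08, 2.74 and 3.09 CPM in those of FOXO3 KO. All 3 FOXO3 KO libraries lay below all 3 WT libraries, the library labelled FOXO3 KO 2 among them although its Foxo3 was at the WT level. The means were 4.75 ± 0.750 and 2.97 ± 0.201 CPM (SD, n = 3), a log2 fold change of -0.68 ± 0.22 (SE), with adjusted p = 0.765 by edgeR's quasi-likelihood test (0.0198 unadjusted). With 5 libraries the change was -0.62 ± 0.27 and the unadjusted p 0.0673 in the same fit across all genes.

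Dgat2, which makes the last step to triglyceride, had 14 to 50 counts in a library (chr7:99153658-99182719, - strand). It was at 0.831, 0.494 and 0.839 CPM in the WT libraries and at 1.52, 0.839 and 1.50 CPM in those of FOXO3 KO. FOXO3 KO 1 and 3 were above WT, at 43 and 50 counts against 30, 14 and 30. The library labelled FOXO3 KO 2 stood level with WT 3, so that the groups were apart only in digits that are not shown. For Dgat2 the log2 fold change was 0.83 ± 0.37 (SE) with 6 libraries and 1.06 ± 0.37 with 5, with adjusted p = 0.839 and 0.994 by edgeR's quasi-likelihood test (0.0649 and 0.0323 unadjusted). Soat1, which esterifies cholesterol and has the highest level of this role per kilobase (61.8 CPM), was at 560, 668 and 233 CPM in the WT libraries and at 610, 582 and 455 CPM in those of FOXO3 KO, again with WT 3 alone at the bottom. Its log2 fold change was 0.17 ± 0.39, and 0.13 ± 0.48 with 5 libraries. Agpat2, Lpin1, Lpin2 and Dgat1 lay between -0.04 and 0.09 and overlapped between groups.

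**Figure D3:**
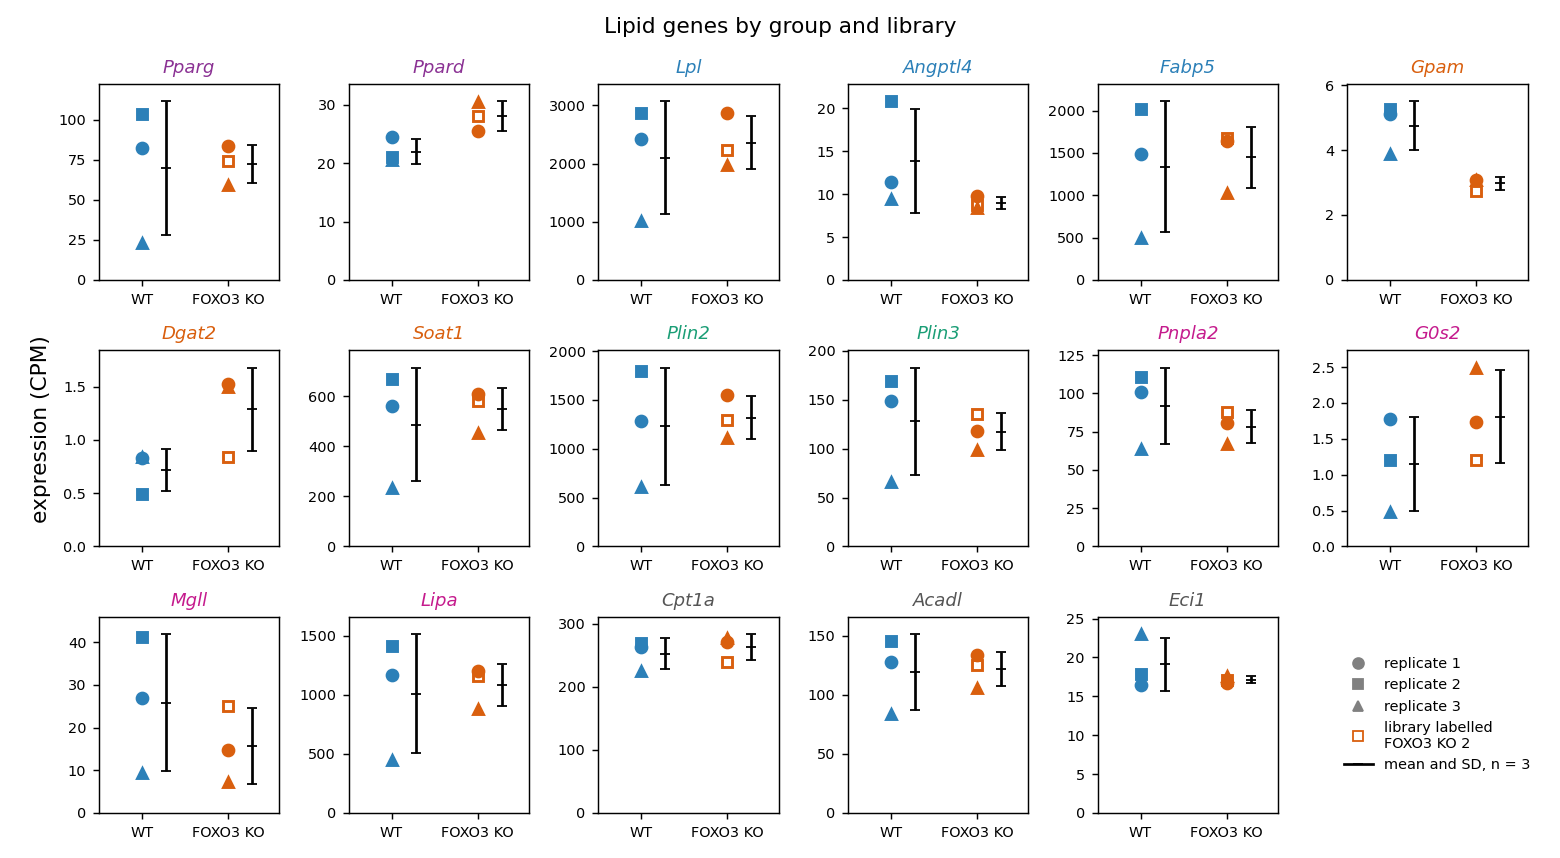
CPM of 17 genes in each library (points, with the replicate given by the shape and the library labelled FOXO3 KO 2 drawn open), with the mean and SD of each group of 3; every axis starts at 0. The WT 3 triangle is the lowest point of the panel for Pparg, Ppard, Lpl, Fabp5, Soat1, Plin2, Plin3, Pnpla2, G0s2, Lipa, Cpt1a and Acadl, and the groups are apart for Ppard and Gpam.

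The droplet coat of these cells was in the main that of Plin2 and Plin3. Plin2, the perilipin that coats macrophage droplets and is stable only on them, stood at 675 CPM per kilobase, the second highest of the 48 genes, and Plin3 at 33.7. The perilipins and the fusion protein of fat, liver and muscle were close to absent: Plin4 had 0 to 4 counts in a library, Plin5 0 to 18 and Cidec 0 or 1. The 18 counts of Plin5 were in WT 3, the next highest being 8 in FOXO3 KO 3.

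Plin2 was at 1284, 1799 and 609 CPM in the WT libraries and at 1550, 1298 and 1110 CPM in those of FOXO3 KO. WT 2 and WT 3 were the highest and the lowest of the 6 libraries, with all 3 FOXO3 KO libraries between them. Plin2 had a log2 fold change of 0.10 ± 0.40 (SE) with 6 libraries and 0.11 ± 0.50 with 5, with adjusted p = 0.964 and 0.996 by edgeR's quasi-likelihood test. Plin3 was at 149, 169 and 66.3 CPM in the WT libraries and at 118, 136 and 98.2 CPM in those of FOXO3 KO, which likewise lay inside the range of WT, and its log2 fold change was -0.13 ± 0.35 (-0.24 ± 0.42 with 5 libraries). The membrane proteins of droplet budding, Fitm2 and Bscl2 (seipin), had log2 fold changes of -0.08 ± 0.17 and 0.01 ± 0.13.

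Among the lipases, that of the lysosome was the most abundant. Lipa, the acid lipase of the lysosome, stood at 352 CPM per kilobase, Nceh1, which cuts cholesteryl ester, at 77.6, and the cytosolic triglyceride lipase Pnpla2 (ATGL) at 32.4. Lipa was at 1171, 1412 and 449 CPM in the WT libraries and at 1206, 1161 and 877 CPM in those of FOXO3 KO, with a log2 fold change of 0.10 ± 0.42 (SE), and of 0.04 ± 0.53 with 5 libraries. WT 3 was the lowest and WT 2 the highest of the 6.

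Pnpla2 is known in fat cells as a target of FoxO factors. Its promoter window here (chr7:141454938-141455187) held neither motif. Pnpla2 was at 101, 111 and 63.7 CPM in the WT libraries and at 80.4, 87.8 and 66.7 CPM in those of FOXO3 KO. All 3 FOXO3 KO libraries lay below WT 1 and WT 2 and above WT 3. For Pnpla2 the log2 fold change was -0.23 ± 0.23 (SE) with 6 libraries and -0.32 ± 0.27 with 5, with adjusted p = 0.866 and 0.994 by edgeR's quasi-likelihood test. G0s2, which inhibits it, was at 1.77, 1.20 and 0.475 CPM in the WT libraries and at 1.74, 1.20 and 2.49 CPM in those of FOXO3 KO, for a log2 difference of 0.66 ± 0.53 (0.88 ± 0.59 with 5 libraries). FOXO3 KO 3 was the highest and WT 3 the lowest, and the other 4 libraries overlapped. Hilpda, a hypoxia-induced inhibitor of the same lipase, and Abhd5, its coactivator, had log2 fold changes of 0.35 ± 0.49 and 0.27 ± 0.38.

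Mgll, which frees the last fatty acid and also cuts the endocannabinoid 2-arachidonoylglycerol, had the lowest log2 fold change of the 44 (chr6:88724412-88828360, + strand). It was at 27.0, 41.2 and 9.28 CPM in the WT libraries and at 14.6, 25.1 and 7.32 CPM in those of FOXO3 KO. FOXO3 KO 1 and 3 lay below WT 1 and 2, the library labelled FOXO3 KO 2 lay close to WT 1, and FOXO3 KO 3 and WT 3 were the lowest of the 6, in that order. Its log2 fold change was -0.72 ± 0.63 (SE) with 6 libraries and -1.24 ± 0.69 with 5, with adjusted p = 0.859 and 0.994 by edgeR's quasi-likelihood test. WT alone ranged over more than 4-fold, and the SE was the widest of the 44 genes with 6 libraries.

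Beta-oxidation was the role with the smallest standard errors. The 95% interval of the log2 fold change lay within 1.5-fold either way for all 11 genes with 6 libraries, beside 37.2% of all genes tested and 20 of the 44 lipid genes. With 5 libraries it did for 8 of the 11, beside 25.5% of all genes. For the other genes of mitochondrial oxidation tested, the interval lay within 1.5-fold for 10 of 18 with 6 libraries and 7 of 19 with 5. For those of peroxisomal oxidation it did for 8 of 10 and 4 of 10. Cpt1a, the gate through which long acyl chains enter mitochondria, was at 264, 270 and 225 CPM in the WT libraries and at 272, 240 and 278 CPM in those of FOXO3 KO. With 6 libraries the groups overlapped, WT 3 and the library labelled FOXO3 KO 2 being lowest, and with 5 libraries FOXO3 KO 1 and 3 lay just above WT 2, the highest of WT. The log2 fold change was 0.06 (95% interval -0.25 to 0.36) with 6 libraries and 0.12 (-0.28 to 0.52) with 5.

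Acadl, the long-chain dehydrogenase and the most abundant of the role per kilobase (62.8 CPM), was at 128, 146 and 83.3 CPM in the WT libraries and at 134, 125 and 106 CPM in those of FOXO3 KO, for a log2 difference of 0.03 (-0.50 to 0.57), and 0.01 ± 0.28 (SE) with 5 libraries. Its low library was again WT 3. Eci1, the isomerase for unsaturated chains, was at 16.4, 17.9 and 23.0 CPM in the WT libraries and at 16.7, 17.1 and 17.6 CPM in those of FOXO3 KO. Here WT 3 was the highest of the 6, the reverse of most of the genes, and the log2 fold change was -0.16 (-0.53 to 0.21), or -0.15 ± 0.19 with 5 libraries. Acadvl, the very-long-chain dehydrogenase, was at 56.0, 61.5 and 56.2 CPM in the WT libraries and at 55.1, 52.1 and 52.1 CPM in those of FOXO3 KO, so that its groups did not overlap, with a log2 fold change of -0.12 (-0.33 to 0.08). The other 7 genes of the role (Cpt2, Slc25a20, Acadm, Hadha, Hadhb, Acaa2 and Etfdh) lay between -0.11 and 0.02.

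Among the 6 libraries, WT 3 was low for most of these genes. The 48 genes together took 10119, 12403 and 4844 CPM in the 3 WT libraries, against 11174, 10094 and 8201 CPM in the 3 of FOXO3 KO. Lpl, Fabp5, Plin2, Lipa and Soat1 made up 23.6%, 14.7%, 13.5%, 11.0% and 5.47% of that sum, and together they took 6927, 8763 and 2800 CPM in the WT libraries. WT 3 was the lowest of the 6 libraries for 30 of the 44 genes (68.2%), beside 37.5% of all genes tested. Low values in WT 3 were not limited to the lipid genes: it was also lowest for 8 of the 12 macrophage markers (66.7%), 40 of the 72 other pathway genes tested (55.6%) and all 6 neutrophil and 5 fibroblast markers tested. Against the mean of WT 1 and WT 2, the median log2 difference of WT 3 was -0.42 for the 44 genes, -1.45 for lipolysis, -0.79 for the coat, -0.74 for uptake and -0.25 for beta-oxidation, beside 0.01 for all genes tested and -0.35 for the 12 macrophage markers. Pparg lay furthest below, at -1.99 on the log2 scale. After WT 3, the library with the lowest summed CPM of the 48 genes was FOXO3 KO 3, the other library with high Xist. The same held for the sum of each role. Whether sex had a part in these levels was not tested.

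WT 3 also held 5496 CPM of the 8 B cell markers (Cd79a, Ms4a1, Ighm and others), beside 300.4 to 1397 CPM in the other 5 libraries, all 8 markers being highest there. Its macrophage markers summed to 15110 CPM, beside 16712 to 19857 CPM in the others, a sum made up in the main of Lyz2. Furthest below in that list were Cd68 and Fcgr1, 1.42 and 1.38 lower in WT 3 than in WT 1 and 2 on the log2 scale. The list was not uniform, since WT 3 was the highest of the 6 libraries for 4 of the 12 markers. These were Adgre1, C1qa, C1qc and Itgam, 0.21 to 0.42 higher in WT 3 than in WT 1 and 2 on the same scale. The part of B cell RNA in the low lipid genes was not tested, and in bulk RNA fewer cells of a type and less RNA per cell cannot be told apart.

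Without WT 3, most of the 44 log2 fold changes were below 0. WT 3 was the lowest library for 30 of the 44 genes, and leaving it out raises the WT level of those genes. Gpam, Angptl4 and Mgll are not among the 30, but WT 3 was the lowest WT library for each of them too. The shift downward here and in the next paragraph therefore follows from the library left out. It is no separate result, nor are the counts at an unadjusted p under 0.05 that go with it. The median SE of the 44 genes fell as well, from 0.22 with 6 libraries to 0.13 without WT 3. With WT 1 and 2 against the 3 FOXO3 KO libraries, 32 of the 44 were lower, in place of 18, and 18 changed sign. The median log2 fold change went from 0.04 to -0.14, beside 0.00305 for all genes. At an unadjusted p under 0.05, 5 genes were lower (Gpam, Pnpla2, Angptl4, Plin3 and Lpin1) and 1 was higher (Ppard), beside 2.25% of all genes lower and 6.15% higher. None passed the adjustment (0% of all genes did), the lowest adjusted p being 0.513 (Gpam) by edgeR's quasi-likelihood test. Pnpla2 reached a log2 fold change of -0.42 ± 0.12 (SE), Plin3 -0.43 ± 0.14 and Angptl4 -0.83 ± 0.25.

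With FOXO3 KO 2 left out as well, WT 1 and 2 stood against FOXO3 KO 1 and 3, and 32 of the 44 were again lower, with a median of -0.12. Of these, 6 had an unadjusted p under 0.05 (Mgll, Plin3, Pnpla2, Lpin1, Gpam and Angptl4) beside 3.39% of all genes, and Dgat2 was the 1 that was higher beside 5.49%. The lowest adjusted p was 0.329 (Mgll, log2 fold change -1.63 ± 0.37) by edgeR's quasi-likelihood test, and 0 passed, beside 0.0256% of all genes. Ppard and Gpam were at 0.30 to 0.35 and -0.62 to -0.79 in the 4 sets of libraries. All 4 sets share WT 1, WT 2, FOXO3 KO 1 and FOXO3 KO 3. For both genes the groups did not overlap with all libraries, so their direction could not turn in a smaller set.

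**Figure D4:**
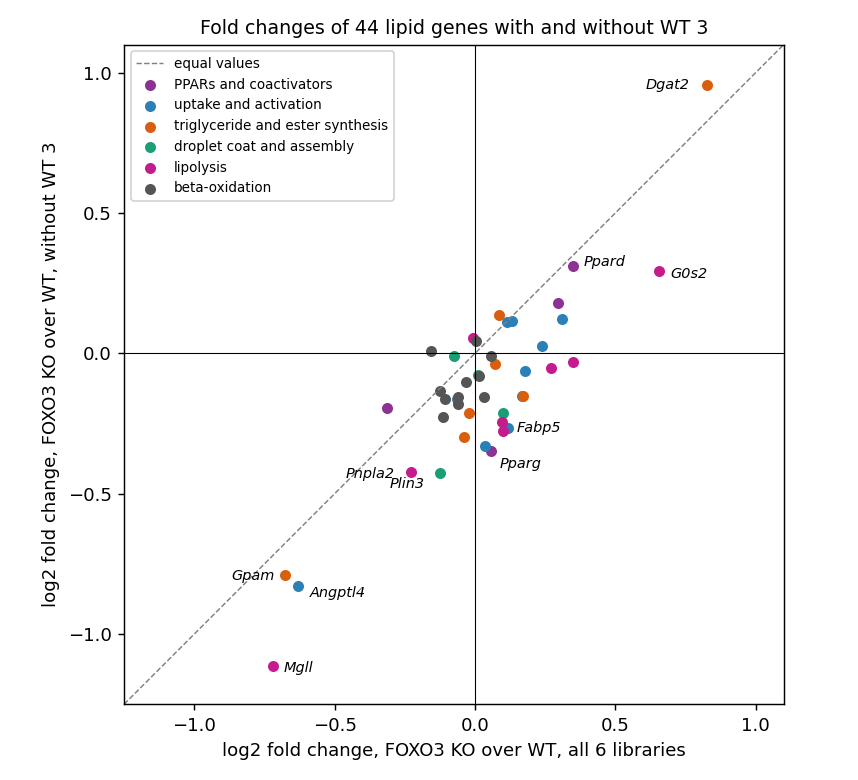
Log2 fold change of the 44 genes, FOXO3 KO over WT, with all 6 libraries (x axis) against that without WT 3 (y axis), by role; the dashed line marks equal values. On the y axis 32 of the 44 points lie below 0, and on the x axis 18 do.

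Of 90 other genes of the same pathways, 72 were tested with 6 libraries, of which 39 were higher and 33 lower, with a median log2 fold change of 0.02. Adjusted p passed 0.05 for 0 of them by edgeR's quasi-likelihood test, with 6 or with 5 libraries. With 5 libraries and a block for replicate number it passed for 1, Faah, which breaks down anandamide, beside 284 of all 16217 genes. Faah was high in WT 3 alone, at 35.2 CPM beside 2.30 to 7.04 CPM in the others. At an unadjusted p under 0.05 with 6 libraries, 1 was higher (Lpcat2, a phospholipid acyltransferase of droplets, log2 fold change 0.34 ± 0.14) and 1 lower (Rxrb, a partner of the PPARs, -0.23 ± 0.09), and with 5 libraries 0 of 73 were, so no gene did in both fits. The count with 6 libraries ranged from 0 (without FOXO3 KO 2 or without FOXO3 KO 3) to 7 (without WT 3). Over all genes tested, 4.04% were higher and 1.65% lower at that p with 6 libraries, and 6.15% and 2.25% without WT 3. The 10 genes tested of peroxisomal oxidation had a median of -0.0066 and the 18 of mitochondrial oxidation one of 0.049.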

How the data were processed

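RNA-seq of thioglycollate-elicited peritoneal macrophages was analysed in 3 libraries labelled WT and 3 labelled FOXO3 KO. The authors deposited estimated counts per gene symbol, without normalization, for the 6 libraries. The submitters' processing notes name STAR 2.6.1d, kallisto 0.46.0, DESeq2 and the build mm10, without their order; the sources used here do not give the annotation. Estimated counts were rounded before testing. Of all values in the table, zeros included, 81.4% were already whole to within 0.01. How the counting shared reads between near-identical copies could change single genes, and library totals (28083393 to 36424117 counts) bound the precision of the low ones.

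Groups were compared with edgeR 4.0.16 (R 4.3.3) by the quasi-likelihood test after filterByExpr and TMM, on the whole table, adjusting by Benjamini-Hochberg over every gene tested, with all 6 libraries and without the library labelled FOXO3 KO 2. Each SE was taken as the absolute log2 fold change divided by the root of F. The fits were also run on simulated counts with known changes. Those counts held no outlying or mislabelled library, and their results are not given here. Alternatives were the likelihood ratio test, DESeq2 1.42.0, limma-voom (limma 3.58.1), upper-quartile factors, library size alone, no filter, a stricter filter (10 counts or more in 3 libraries), a block for replicate number, leaving out every library in turn and a covariate for Xist above 1 CPM. Exon lengths and gene positions are those of GENCODE M21 (GRCm38), found for 98.8% of symbols, and promoter windows those of RefSeq.

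The genes, roles, marker lists and tests were chosen with earlier results of these data known. Values in every library are given for genes at an unadjusted p under 0.05 in either fit, genes whose groups do not overlap with a log2 fold change beyond 0.5, the highest and the most changed gene of each role, and Pparg, Plin2, Pnpla2, Cpt1a, Lpl and G0s2. Other genes with such values, among them Lipe and Acadvl, were chosen after their values were seen. Groups of 3 cannot be tested for single outlying samples here.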

Additional observations from a re-analysis of the deposited data

How the results depend on the processing

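None of the lipid genes that were tested passed an adjusted p of 0.05 under any alternative, with 6 or 5 libraries. The medians of all 44 genes moved by less than the spread between replicates (0.29 with 6 libraries). That spread includes WT 3, so it is a wide bar for the setting without WT 3. Leaving out WT 3 took the median from 0.04 to -0.14 with 6 libraries, a change of sign. Whether the replicate numbers of the labels pair the samples was not settled. Deviations from the group means correlated at 0.256, -0.0722 and 0.524 for numbers 1, 2 and 3, and at -0.518 to 0.552 for unlike numbers. WT 3 and FOXO3 KO 3 are also the libraries with high Xist. The numbers are therefore taken only as shared numbers. With the replicate block 2 genes had an unadjusted p under 0.05 with 6 libraries, namely Mgll and Dgat2, while Ppard (0.0645) and Gpam (0.0535) no longer did by edgeR's quasi-likelihood test. Over all 15608 genes tested in that fit, 568 were higher and 465 lower at an unadjusted p under 0.05. With 5 libraries and the block 3 of the 44 had such a p (Hilpda, Abhd5 and Mgll). Beside them 981 of all 16217 genes were higher and 1495 lower at that p. The block moved the genes called over the whole table with 5 libraries from 0 to 284. Over the whole table DESeq2 called 129 genes with 6 libraries and 114 with 5, and the likelihood ratio test 109 and 77, in place of 0. With 5 libraries 10 were called with no filter, 17 with the Xist covariate and 4 without WT 3. Among the other pathway genes, the block with 5 libraries called 1 in place of 0 (Faah, lower in FOXO3 KO, adjusted p = 0.0311, where the fit without the block gave -1.73 ± 1.12 and 0.994, by edgeR's quasi-likelihood test). Faah was at 7.04, 3.67 and 35.2 CPM in WT 1 to 3, and at 2.30, 4.52 and 6.90 CPM in FOXO3 KO 1 to 3. WT 3 alone stood far above the rest, and in that fit WT 2 had no FOXO3 KO library of its number. The count of other pathway genes at an unadjusted p under 0.05 was 2 with 6 libraries and 7 with the Xist covariate, and ranged from 0 to 7 as single libraries were left out. With 5 libraries it was 0, and 14 with the block, 9 with the Xist covariate and 0 to 10 as single libraries were left out. Over all genes with 6 libraries and the Xist covariate, 849 of 15608 were higher and 757 lower at that p. With 5 libraries these were 981 and 1495 of 16217 with the block, and 951 and 1405 with the Xist covariate.

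The count of lipid genes at an unadjusted p under 0.05 was 2 with 6 libraries, and 1 by the likelihood ratio test and by library size without factors. It ranged from 0 to 6 as single libraries were left out, the 6 being without WT 3. With 5 libraries it was 1, and 2 by DESeq2, 0 by library size without factors, 3 with the replicate block and 4 with the Xist covariate. The count with 5 libraries ranged from 0 to 7 as single libraries were left out, the 7 again without WT 3. Of all 15608 genes with 6 libraries, 630 were higher and 257 lower at that p. Without WT 3 these were 971 and 356 of 15788. Of all 16217 genes with 5 libraries, 494 were higher and 204 lower, and 521 and 389 by DESeq2. These were 981 and 1495 with the replicate block, 951 and 1405 with the Xist covariate, and 856 and 528 of 15597 without WT 3. The median of the regulators with 6 libraries ranged from -0.0082 (without WT 3) to 0.317. The log2 fold change of Foxo3 with 5 libraries passed an adjusted p of 0.05 at -4.46 by the likelihood ratio test and by DESeq2, at -4.45 with no filter, at -4.36 with the replicate block and at -4.35 with the Xist covariate. As single libraries were left out it ranged from -4.64 to -4.33.

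Some genes close to 0 changed sign as single libraries were left out, and none of them was called. With 6 libraries their log2 fold changes ranged from -0.35 to 0.46 for Pparg, -0.27 to 0.55 for Fabp5, -0.15 to 0.47 for Soat1, -0.21 to 0.48 for Plin2, -0.43 to 0.13 for Plin3, -0.25 to 0.42 for Lipa, -0.16 to 0.21 for Acadl, -0.26 to 0.0093 for Eci1, -0.0077 to 0.12 for Cpt1a and -0.15 to 0.46 for Lpl. With 5 libraries they ranged from -0.38 to 0.45 for Pparg, -0.39 to 0.43 for Fabp5, -0.20 to 0.43 for Soat1, -0.21 to 0.50 for Plin2, -0.55 to 0.015 for Plin3, -0.31 to 0.37 for Lipa, -0.19 to 0.19 for Acadl, -0.26 to 0.0024 for Eci1 and -0.12 to 0.50 for Lpl. With 5 libraries Fabp5 was at -0.00093, and at 0.17 by limma-voom, 0.012 with upper-quartile factors, 0.025 with library size without factors, 0.0087 with no filter, 0.00086 with at least 10 counts in at least 3 libraries, 0.60 with the replicate block and 0.41 with the Xist covariate. Plin3 with 5 libraries went from -0.24 to 0.12 with the replicate block and to 0.012 with the Xist covariate. The cause of these shifts was not tested. Leaving out WT 3 gave the lowest value for 9 of the 10 genes with 6 libraries.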

Other observations

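Pdk4, which switches off pyruvate dehydrogenase so that mitochondria burn fat in place of glucose, was seen almost only in WT 3, with 447 counts (12.5 CPM), beside 5 to 16 counts (0.176 to 0.443 CPM) in the other 5 libraries. It was singled out after its values were seen, and it was tested only with 5 libraries, with a log2 fold change of -4.14 ± 2.12 (SE) and adjusted p = 0.994 by edgeR's quasi-likelihood test. Plin5, the perilipin of oxidative tissue, had its highest count, 18, in the same library.

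Cd36, the fatty acid translocase of the plasma membrane, was at 1868, 2042 and 880 CPM in WT 1 to 3, against 2344, 1812 and 1681 CPM in FOXO3 KO 1 to 3, with WT 3 the lowest as for Lpl and Plin2. Its log2 fold change was 0.29 ± 0.36 (SE) with 6 libraries and 0.33 ± 0.45 with 5.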
